A study of Rattus norvegicus with 3 samples.

Results

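Cluster 13 of the UAC library was 1 of the 18 cell clusters in the graph-based clustering deposited for that library. The 3 libraries of the series had 52 clusters. Cluster 13 was taken by its cluster number, under the working name of a mast cell and basophil cluster. The cluster held 3420003 of the 92629658 UMIs (unique molecular identifiers, each marking 1 captured RNA molecule) of the UAC library, which is 3.69%, and 13612 genes had at least 1 UMI in it. The tables hold sums and no cell numbers, so every share below is a share of UMIs, in which a cell with more RNA weighs more.

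The tissue was cartilage and subchondral bone of the temporomandibular joint condyle of wild-type SD rats, measured by droplet-based 3′ single-cell RNA sequencing. The sham group received Vector AAV, the UAC group had unilateral anterior crossbite, a dental model of joint overload, and Vector AAV, and the UAC + miR-330 group had crossbite and miR-330 AAV, so that rats of all 3 groups carried an AAV injected into the joint. Both crossbite groups were kept for 8 weeks, and each group was 1 library that pooled 16 condyles of 8 rats, so rats of a pool cannot be told apart. Sham had 77668015 UMIs in 15 clusters, UAC had 92629658 in 18 and UAC + miR-330 had 97255383 in 19. With 1 library per condition and clusters made from the same genes that are described, no test was run and every value is a description. Levels are given per 1000000 UMIs (CPM). Their 95% intervals are exact Poisson intervals, those of shares are exact binomial (Clopper-Pearson) intervals, and both cover counting error only.

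Mast cells and basophils are granulocytes that arm their surface with IgE through the high-affinity IgE receptor and release histamine, proteases and lipid mediators from granules when the receptor is crosslinked. Mast cells mature in tissues such as the synovium and the bone marrow under the growth factor receptor KIT, whereas basophils mature in the marrow and circulate. Ms4a2 encodes the beta chain of the IgE receptor, Cpa3 a carboxypeptidase of the granules, and Gata2 a transcription factor that both lineages share with blood stem and progenitor cells.

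The working name came with the markers Cpa3, Ms4a2, Mcpt8 and Gata2, so their levels in cluster 13 are no support for it. Cpa3 (ENSRNOG00000011181) had 2122 UMIs in cluster 13, at 620 CPM (interval 594 to 647), against 0.807 CPM in the pooled other 17 clusters. Ms4a2 (ENSRNOG00000020993) had 569 UMIs at 166 CPM (153 to 181), against 1.35 CPM in the others. Gata2 (ENSRNOG00000012347) had 280 UMIs at 81.9 CPM (72.6 to 92.0), against 6.85 CPM. Cluster 13 held 96.7% of the library's Cpa3 UMIs (95.9 to 97.4) and 82.6% of its Ms4a2 UMIs (79.5 to 85.3), but 31.4% of its Gata2 UMIs (28.4 to 34.6), since cluster 11 held 49.8%. The remaining marker, Mcpt8, was not matched by name and was not analysed here. The same cluster held more than 50% of the library's UMIs of the eosinophil granule gene Prg2, of the primary granule gene Elane, of the plasma cell gene Jchain and of Hba-a1, and a large immunoglobulin content. A mast cell and basophil cluster is therefore not what these data show as a whole, and the cluster is called UAC cluster 13 throughout.

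**Figure D1:**
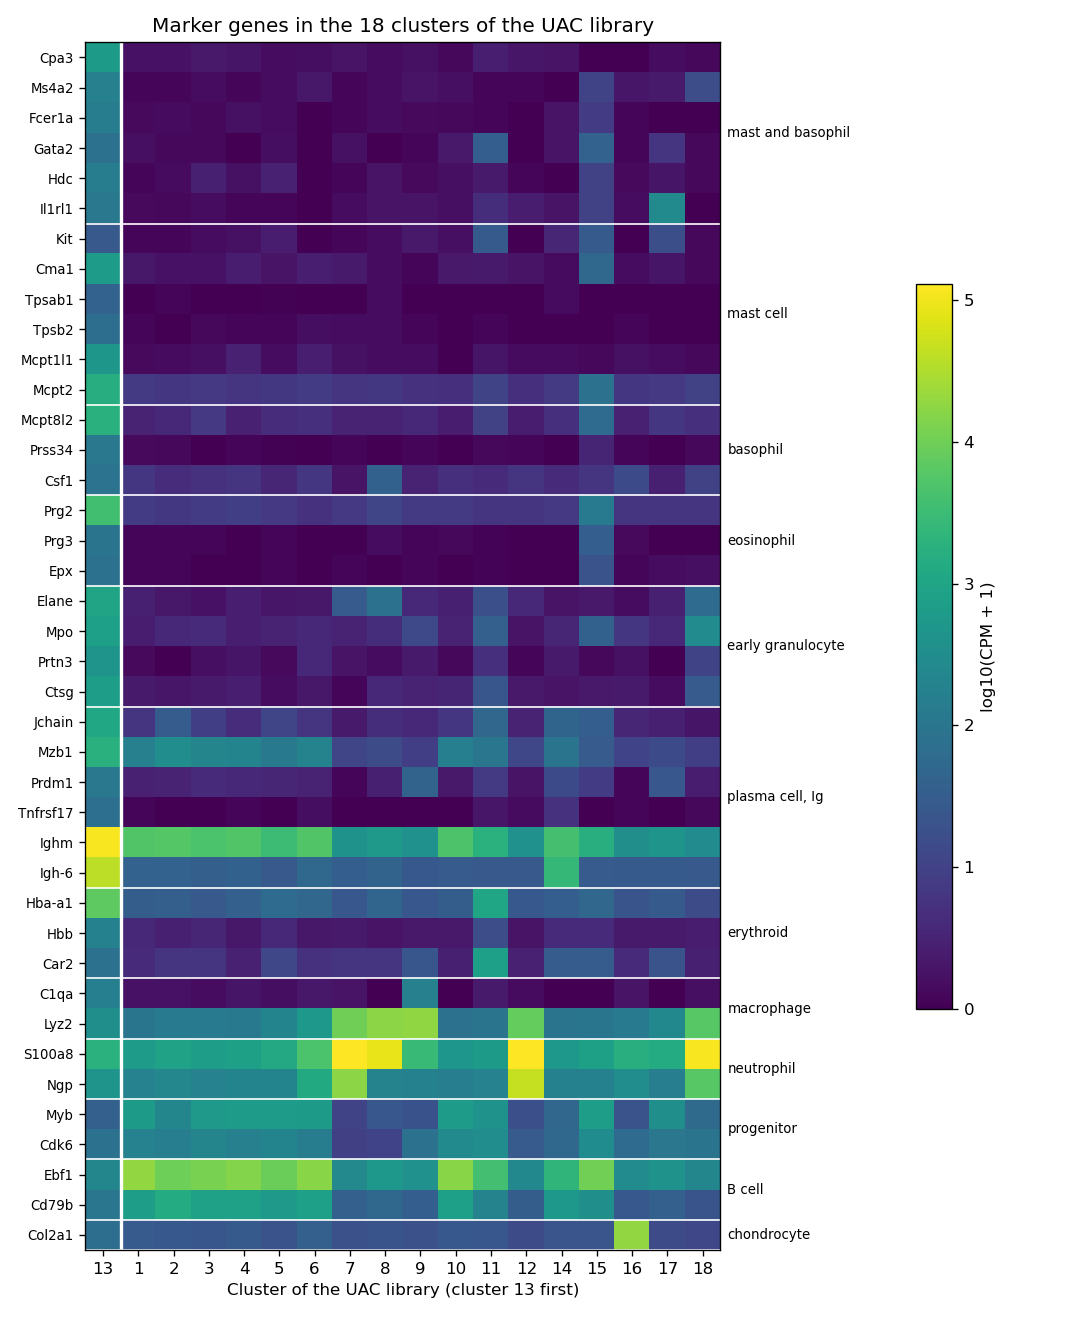
Heatmap of marker genes (rows, grouped by the class they mark) in the 18 clusters of the UAC library (columns, cluster 13 first), with color giving log10(CPM + 1). Cluster 13 is bright for the mast, basophil, eosinophil, early granulocyte and immunoglobulin genes together, with Cpa3 at 620 CPM and Ighm at 118246 CPM, whereas Myb, Ebf1 and S100a8 are brighter in other clusters.

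Of the UMIs of UAC cluster 13, 47.6% lay on its 5 most abundant genes, against a median of 6.60% over the other 17 clusters and 47.9% in cluster 12. Named immunoglobulin genes took 15.8% of the UMIs, where the highest other cluster, cluster 14, had 0.657%. Haemoglobin genes took 1.00%, against at most 0.136% elsewhere. Mitochondrial transcripts were at 6.44%, near the highest other cluster at 6.61%, and ribosomal protein genes at 6.88% against a median of 11.8%. An entry without a gene name, AABR07060872.1, alone had 947842 UMIs in the cluster at 277147 CPM.

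For 15827 genes the UAC library had 10 or more UMIs, and of these 991 (6.26%) were at least 2-fold higher in cluster 13 than in the pooled other clusters and 9198 (58.1%) were at least 2-fold lower, after adding 0.5 UMI to each count. The median log2 ratio over these genes was −1.22, so that value, and not 0, marks the typical gene. With totals that leave out mitochondrial, ribosomal protein, haemoglobin and named immunoglobulin genes and 3 large unnamed entries, the median was −0.11 and the numbers became 2805 higher and 3294 lower. The higher share of all calls moved from 9.73% to 46.0%, and to 52.2% when ratios were centred on their median, with 3156 higher (19.9% of all genes counted) and 2888 lower (18.2%). Of the 991 higher genes, 192 had at least 100 UMIs in the cluster, 383 had 3 or fewer, and for 429 the whole counting interval lay past 2-fold. For the lists described next, medians and counts after subtracting −1.22 from every log2 ratio are called centred.

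The mast cell class was represented by 12 matched markers of 15, of which 11 were higher and 1 lower, with a median log2 ratio of 3.56 and a centred median of 4.79. Their sum was 2918 CPM in cluster 13 and at most 530 CPM in another cluster, cluster 9, with a median of 12.7 CPM over the others. Mcpt2, a mast cell protease of mucosal type, was the most abundant and gave 52.7% of the sum. The chymase gene Cma1 was at 681 CPM (653 to 709), with 90.4% of the library's UMIs (89.2 to 91.5). The tryptase genes Tpsab1 and Tpsb2 were at 39.2 and 68.7 CPM, with log2 ratios of 9.61 and 8.54. Tpsab1 had 134 of its 138 UMIs in the cluster. Kit, which encodes the receptor for stem cell factor, was at 25.4 CPM (20.4 to 31.4) with a log2 ratio of 2.07. With all genes in the totals, clusters 11 and 15 had 27.3 and 26.7 CPM, within its interval. Totals without the gene families and large unnamed entries left out above raise levels of cluster 13 more. The progenitor sum, for example, went from 225 to 590 CPM in cluster 13 and from 2025 to 2626 CPM in cluster 15. The erythroid sum went from 10170 to 26656 CPM in cluster 13 and from 3386 to 4483 CPM in cluster 11. The order of these Kit levels therefore depends on the totals. Mitf, a transcription factor of mast cells, was the marker that was lower, at a log2 ratio of −1.92, which is −0.69 centred and then within 2-fold, and Mcpt4 had 3 UMIs.

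Basophil markers gave a less complete picture, since 8 of 12 were matched and 5 of these had at least 10 UMIs in the library. Of the 5, 4 were higher and 0 lower, and the class sum was 2006 CPM in cluster 13, against 82.1 CPM in the next cluster. Mcpt8l2, which belongs to the same protease family as the basophil protease Mcpt8, gave 86.8% of that sum, at 1741 CPM (1697 to 1786). Prss34, a serine protease known from basophils, was at 109 CPM with 94.2% of the library's UMIs (91.4 to 96.3). Csf1, the growth factor of macrophages and osteoclast precursors, was at 89.8 CPM (80.0 to 100.4) with 39.9% of the library's UMIs. Il3ra, a chain of the interleukin-3 receptor, was at 65.5 CPM against 66.5 CPM in cluster 9, with all genes in the totals. The cytokine genes Il4 and Il13 had 0 UMIs in cluster 13, where the limit set for a count of 0, 3 counts, is 0.877 CPM, and 3 and 1 UMIs in the whole library. Cyp11a1 had 2 UMIs and L1cam had 1.

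Of 10 markers shared by both cell types 8 were higher and 0 lower, but 3 of these are Cpa3, Ms4a2 and Gata2, described above. Of the other 7 markers 5 were higher and 0 lower, with a median log2 ratio of 3.73 and a centred median of 4.95. Fcer1a, the IgE-binding chain of the receptor, had 470 UMIs at 137 CPM (125 to 150), with 90.2% of the library's UMIs. Hdc, the enzyme that makes histamine, was at 144 CPM (131 to 157), with 82.8%. Il1rl1, the receptor for interleukin-33, was at 112 CPM, below the 283 CPM of cluster 17. Ltc4s, which makes leukotriene C4, was at 12.9 CPM with a log2 ratio of 3.73. Slc18a2, which loads amines into vesicles, was at 8.19 CPM, against 10.3 CPM in cluster 15, with all genes in the totals.

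In the list of granule proteases, which holds the carboxypeptidase gene Cpa3 beside serine proteases, 14 of 22 genes were matched, 13 had at least 10 UMIs in the library, and all 13 were higher, with a median log2 ratio of 8.14. They summed to 17653 CPM in cluster 13, which held 91.5% of the list's UMIs, against 561 CPM in cluster 15. Mcpt10, with 34016 UMIs at 9946 CPM, gave 56.3% of the sum, and 93.8% of its UMIs lay in the cluster (93.5 to 94.0). Mcpt1l4 and Mcpt1l1 were at 1439 and 515 CPM. Gzmb, a granzyme of cytotoxic cells that other granulated cells can carry as well, was at 227 CPM against 33.3 CPM in cluster 17. The mast cell protease genes are close copies of each other, and RefSeq assembly GRCr8 places all 13 genes with Mcpt or Cma1 symbols on chromosome 15, so how UMIs were divided between copies is uncertain.

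The eosinophil granule genes Prg2, Prg3 and Epx also had their highest level in cluster 13. Of the 10 markers 9 were matched, 7 were higher and 2 lower, and the class sum of 3904 CPM compared with 335 CPM in the next cluster, cluster 12. Prg2, the major basic protein of eosinophil granules, gave 94.2% of the sum, with 12573 UMIs at 3676 CPM (3612 to 3741) and 93.1% of the library's UMIs. Prg3, its homologue, was at 90.6 CPM, and the eosinophil peroxidase gene Epx at 81.6 CPM (72.3 to 91.7), with 78.4% of its UMIs. Il5ra, the receptor chain for interleukin-5, had 12 UMIs, and the eotaxin receptor Ccr3 had 3 UMIs, whose ratio interval ran from −0.29 to 3.90 on the log2 scale. Siglec5 and Cebpe were lower, at log2 ratios of −2.18 and −1.90, but within 2-fold when centred, at −0.96 and −0.68.

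Primary granule genes, which neutrophil precursors make at the promyelocyte stage, were high as well. Elane was at 968 CPM (936 to 1002) with 80.2% of the library's UMIs, Prtn3 at 434 CPM with 91.8%, Ctsg at 728 CPM with 83.8% and Mpo at 778 CPM with 59.3%. Ms4a3 also was higher, at a log2 ratio of 3.41. The other members of the early granulocyte class behaved differently, and of its 10 markers 5 were higher and 4 lower. Fcnb, Gfi1, Cebpe and Igsf6 had log2 ratios of −2.16, −1.19, −1.90 and −3.06. On the centred scale Gfi1 lies close to 0, and 6 markers were higher and 1 lower. The class sum was 3150 CPM in cluster 13 and 2106 CPM in cluster 9. Genes of mature neutrophils were lower than in the pooled other clusters in 11 of 12, with none higher, and 10 lower and 1 higher when centred. Their median log2 ratio was −3.45 and the centred median −2.22. S100a8 and S100a9 were at 1856 and 2313 CPM, against 130346 and 238630 CPM in cluster 12. These ratios are against a pool that holds cluster 12, where the neutrophil markers summed to 469017 CPM. By its own sum of these markers, 5243 CPM, cluster 13 ranked 7 of 18, above the median of 3517 CPM over the others.

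Progenitor markers were not concentrated in the cluster. Of 16 progenitor markers 14 were matched, 2 were higher, 7 lower and 5 within 2-fold, with a median log2 ratio of −0.98 and a centred median of 0.24, and by their sum of 225 CPM cluster 13 ranked 14 of the 18 clusters, where cluster 15 had 2025 CPM. Centred, 5 were higher and 5 lower. Over all genes 6.26% were higher and 58.1% lower, and 19.9% and 18.2% centred. With totals that also leave out the large unnamed entries the sum was 590 CPM, rank 12, against a median of 719 CPM over the other clusters. Cd34, Hlf, Mecom and Mycn had 0 UMIs in the cluster, with the same limit of 0.877 CPM each. Cd34 and Mecom also had few UMIs in the whole library, with 17 and 14, so at this depth a count of 0 says little about them. Hlf and Mycn had 108 and 103 UMIs in the library. Myb, a transcription factor of cycling progenitors, was at 36.0 CPM (29.9 to 42.9) against 362 CPM in the other clusters, a log2 ratio of −3.32 and −2.10 centred. Cdk6, the most abundant of the class, was at 82.7 CPM with a log2 ratio of −1.03, which turns to 0.20 on the centred scale. The 2 markers that were higher were Kit and Tal1, at log2 ratios of 2.07 and 1.40.

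Cell cycle genes depended on the scale. Of 35 matched genes 0 were higher and 32 lower, beside 58.1% lower over all genes, with a median log2 ratio of −1.60. The centred median was −0.38, with 11 genes lower and 0 higher. Their sum was 1545 CPM, rank 13 of 18, with all genes in the totals. Without the families and large unnamed entries it was 4049 CPM, rank 4, above the median of 2452 CPM over the other clusters. Hmgb2 and Stmn1 had log2 ratios of −2.35 and −2.25, and Rrm2 and Tk1 −0.84 each, which is 0.39 and 0.38 on the centred scale.

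Genes of antibody-secreting cells made up a further component. All 6 matched plasma cell markers of 7 were higher, with a median log2 ratio of 4.10, and their sum of 3161 CPM compared with 371 CPM in cluster 2. Mzb1, a chaperone of immunoglobulin assembly, was at 1755 CPM (1711 to 1800) and gave 55.5% of the sum. Jchain, which joins the subunits of IgM and IgA, was at 1123 CPM (1088 to 1159), with 73.5% of the library's UMIs. Tnfrsf17, a survival receptor of plasma cells, was at 74.3 CPM with 89.1%, and Prdm1, their master regulator, at 113 CPM with 41.3%. Ighm was at 118246 CPM with 62.8% of its UMIs, and Igh-6 at 39712 CPM with 94.0%. B cell markers were mostly lower, in 10 of 11 with none higher, beside 58.1% lower over all genes. Their median log2 ratio was −3.89, and −2.66 centred, with 9 lower. By their sum of 481 CPM cluster 13 ranked 14 of 18, and 11 without the families and large unnamed entries. Ms4a1, the 1 marker within 2-fold, was at 20.2 CPM, rank 3, against a median of 2.97 CPM over the others. Ebf1, a transcription factor of B-lineage cells, was at 224 CPM against 6989 CPM in the other clusters, a log2 ratio of −4.96.

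Several abundant entries carried no gene name. Over the 52 clusters of the 3 libraries, log2(CPM + 1) of AABR07060872.1 had a Pearson correlation of 0.94 with Ighm and 0.15 with Ms4a2. Its correlations with Jchain and Hba-a1 were 0.73 and 0.60. For AABR07034739.1, at 29051 CPM in cluster 13, the values were 0.89 with Ighm and −0.01 with Ms4a2. LOC103694857, at 11145 CPM, correlated at 0.99 with Hba-a1 and 0.48 with Ms4a2. AC098959.1 had the largest ratio of all genes with at least 100 UMIs in the cluster, a log2 ratio of 11.24 with 98.9% of its 5187 UMIs there. It correlated at 0.90 with Prg2, 0.78 with Ms4a2 and 0.72 with Cpa3. These points share libraries and depth and are no test.

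Erythroid markers were led by the haemoglobins. The haemoglobin genes include close copies, so the division of UMIs between them is uncertain. Of 12 matched erythroid markers 5 were higher, 1 lower and 6 within 2-fold, and the sum of 10170 CPM came to 69.2% from Hba-a1. Centred, 8 were higher and 0 lower. Hba-a1 was at 7040 CPM (6952 to 7130), with 59.5% of its UMIs in cluster 13 and 34.1% in cluster 11, and Hbb was at 174 CPM with 63.1%. Alas2, the first enzyme of erythroid haem synthesis, had a log2 ratio of 4.88. Klf1 and Tfrc, a transcription factor and the transferrin receptor of erythroid precursors, had log2 ratios of −0.14 and −0.63 (1.08 and 0.59 centred), and Car1 was at −1.83 (−0.61 centred). Car2 was at 80.1 CPM, against 771 CPM in cluster 11. The part of red cell RNA in the other values of the cluster was not tested.

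Markers of further cell types were measured for the same reason. Beside their counts stand 6.26% higher and 58.1% lower over all genes, and 19.9% and 18.2% when centred. Of 13 matched monocyte and macrophage markers 7 were higher and 2 lower. The complement genes C1qa, C1qb and C1qc, which tissue macrophages make, were at 159, 130 and 110 CPM, with 34.1%, 34.7% and 31.5% of their UMIs. Cluster 9 had 170, 134 and 132 CPM, with all genes in the totals. Totals that leave out mitochondrial, ribosomal protein, haemoglobin and named immunoglobulin genes raised levels of cluster 13 more than those of cluster 9. The mast cell sum, for example, went from 2918 to 4175 CPM in cluster 13 and from 530 to 664 CPM in cluster 9. An order between close levels of these clusters therefore depends on the totals. Lyz2 had a log2 ratio of −3.04 and Cd14 −3.93. The T, NK and innate lymphoid class had 10 of 12 markers lower. Its higher members were Nkg7 and Gzmb. With all genes in the totals Nkg7 was at 412 CPM, against 535 CPM in cluster 18, an order that depends on the totals. By the class sum of 665 CPM, 62.0% of it from Nkg7, cluster 13 ranked 2 of 18. Cluster 17 had 4102 CPM, and the median over the others was 82.9 CPM. Of the tissue's labelled cell types, chondrocyte markers were lower in 9 of 10 and osteoclast markers in 6 of 7 counted, with none higher in either class. These ratios are against a pool that holds cluster 16, and by the chondrocyte sum of 152 CPM cluster 13 ranked 2 of 18, above the median of 68.7 CPM over the others. Col2a1 was at 69.0 CPM, also rank 2, against 19379 CPM in cluster 16 and a median of 21.2 CPM, and Ctsk had 4 UMIs. Oscar and Atp6v0d2 had 0 UMIs in the cluster, of 392 and 92 in the library. Dcstamp, Ocstamp and Calcr also had 0, but with 2, 2 and 1 UMIs in the whole library these counts say nothing about the cluster. Centred, 5 of the 7 counted osteoclast markers were lower and 0 higher. By the osteoclast sum of 106 CPM cluster 13 ranked 17 of 18. Without the families and large unnamed entries the osteoclast sum was 277 CPM, rank 10. Endothelial genes summed to 2.05 CPM. Of the megakaryocyte and platelet class 3 of 9 counted genes were higher and 3 lower, with Pf4 giving 93.2% of the sum and 6 members at 0 UMIs. Dendritic cell markers were lower in 9 of 11, with none higher, but centred 4 were lower and 2 higher. By their sum of 1621 CPM cluster 13 ranked 4 of 18, above the median of 810 CPM over the others. Osteogenic and fibroblast markers were lower in 10 of 12, and in 8 when centred, but by their sum of 268 CPM cluster 13 ranked 3 of 18.

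**Figure D2:**
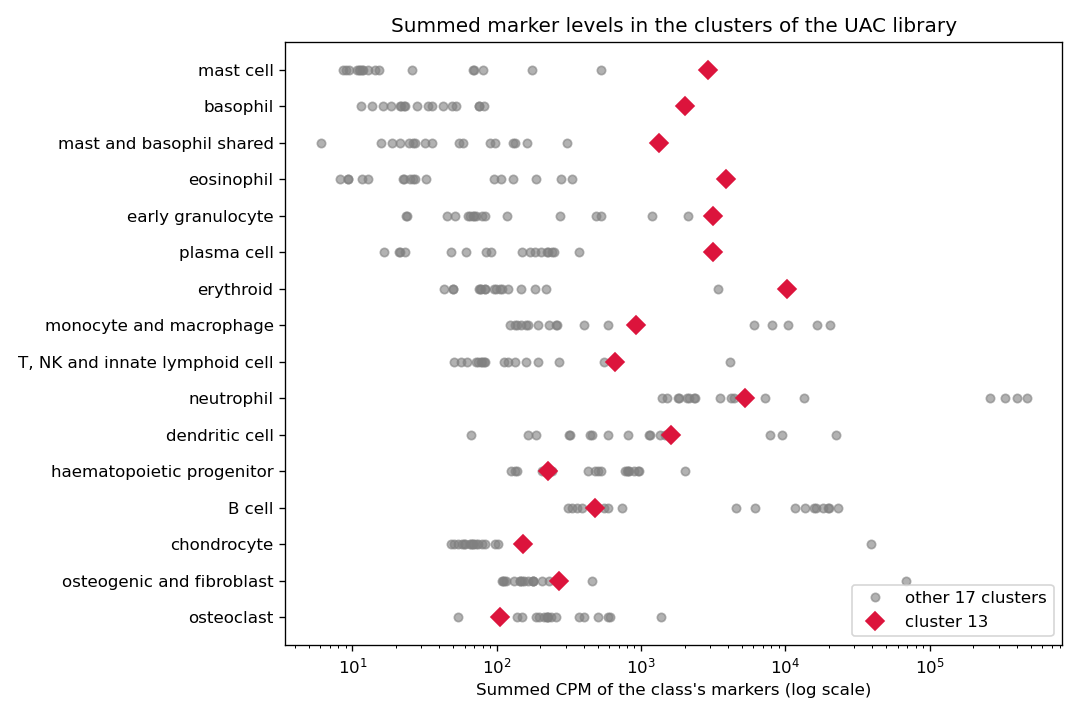
Summed CPM of the matched markers of 16 classes (rows; x axis on a log scale) in UAC cluster 13 (red diamonds) and in each of the other 17 clusters of the UAC library (grey circles). Cluster 13 has the highest sum for the mast cell, basophil, shared, eosinophil, early granulocyte, plasma cell and erythroid classes, with 2918 CPM for mast cell markers, and ranks 14 for progenitor markers at 225 CPM.

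Of the high-affinity IgE receptor list, the alpha and beta chains, Fcer1a and Ms4a2, were higher, and the other genes were mixed. Of 28 genes 6 were higher and 13 lower, with a median log2 ratio of −0.94. Over all genes 6.26% were higher and 58.1% lower, with a median of −1.22. Without the given marker Ms4a2, 5 of 27 were higher and 13 lower. Centred, the balance of the 28 turned to 10 higher and 7 lower, with a median of 0.28, beside 19.9% and 18.2% of all genes. The common gamma chain Fcer1g was at 350 CPM with a log2 ratio of −0.09, which is 1.13 centred and then past 2-fold higher. Its highest level was 2222 CPM in cluster 8, and its median over the other clusters was 30 CPM. The kinase genes Lyn, Fyn and Syk, which act directly below the receptor, had log2 ratios of −2.88, −3.22 and −2.51, and stayed past 2-fold lower when centred, at −1.66, −1.99 and −1.29. Lat, the adaptor that follows them, was at 23.7 CPM with a log2 ratio of 2.12, below the 172 CPM of cluster 17. Grb2 was at 145 CPM, a log2 ratio of −1.53 and −0.31 centred.

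Genes of mediator synthesis varied within each list. In histamine and serotonin handling 5 of the 8 counted genes were higher and 0 lower, and Hdc gave 79.6% of the sum. Slc22a3, a transporter that carries histamine, was at 6.73 CPM with 67.6% of its 34 UMIs in the cluster (49.5 to 82.6), and Tph1, the first enzyme of serotonin synthesis, had 27 UMIs. Of the leukotriene and prostaglandin list 5 of 12 were higher and 2 lower (7 and 1 centred). Ptgs2, the inducible cyclooxygenase, was at 182 CPM, against 209 CPM in cluster 8, with all genes in the totals. Without mitochondrial, ribosomal protein, haemoglobin and named immunoglobulin genes in the totals, the list sum rose from 737 to 1054 CPM in cluster 13. In cluster 8 the list sum rose from 2650 to 2771 CPM, so the order of the Ptgs2 levels depends on the totals. Hpgds, which makes prostaglandin D2, was at 23.4 CPM, against 26.5 CPM in cluster 17, and Alox15 was at 18.4 CPM. Alox5ap and Lta4h had log2 ratios of −0.60 and −0.23, which are 0.62 and 0.99 on the centred scale. In granule proteoglycan and heparin synthesis 5 of 15 were higher and 8 lower, which turned to 6 and 2 when centred. Over all genes 6.26% were higher and 58.1% lower, and 19.9% and 18.2% when centred. The list's shares of lower genes lay near these values and its shares of higher genes above them. Srgn, the core protein that packs proteases in granules, gave 94.5% of the sum, at 4414 CPM against 5626 CPM in cluster 18. With all genes in the totals the list sum ranked 2 of 18, at 4669 CPM against 5870 CPM in cluster 18. With totals that leave out mitochondrial, ribosomal protein, haemoglobin and named immunoglobulin genes it ranked 1, at 6680 CPM against 6300 CPM. Hs6st2, a heparan sulfotransferase, had 13 UMIs and a log2 ratio of 2.67. Of the granule exocytosis list 2 of 16 were higher and 6 lower, beside 6.26% and 58.1% of all genes. Centred, 7 were higher and 0 lower, beside 19.9% and 18.2%, with a centred median of 0.72. Cd63, which reaches the surface of degranulating basophils and mast cells, was at 477 CPM with a log2 ratio of 1.09.

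For receptors and cytokines too the counts changed with the scale. Of all genes counted 6.26% were higher and 58.1% lower, and 19.9% and 18.2% when centred. Before centring, both lists had larger shares of higher genes and smaller shares of lower genes than that. Of the growth factor and cytokine receptors 7 of 29 were higher and 12 lower (12 and 8 centred), and Cxcr4 was the most abundant at 207 CPM, with a log2 ratio of −0.44 (0.78 centred). Of the cytokines 5 of the 20 counted were higher and 9 lower (10 and 5 centred). Ccl2 was at 233 CPM, below the 771 CPM of cluster 9. Il10 had 58 UMIs (12.9 to 21.9 CPM), which is 66.7% of the library's UMIs of the gene, and Il6 at 7.31 CPM with 33.3%. Among the osteoclast and bone signals 2 of 13 were higher and 10 lower (3 and 7 centred), and Csf1 was the most abundant. Of the 41 matched haematopoietic transcription factors 3 were higher and 25 lower, with a median log2 ratio of −1.57 and a centred median of −0.35. These shares are near the 6.26% and 58.1% of all genes, and centred 11 were higher and 13 lower. Their sum in cluster 13 ranked 18 of 18 clusters with all genes in the totals and 14 without the families and large unnamed entries. The factors that were higher were Gata2, Ikzf2 and Tal1, and Ikzf2 was at 64.0 CPM against 639 CPM in cluster 17.

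UAC cluster 13 held at least 50% of the library's UMIs for 111 genes with at least 10 UMIs in the library, and these genes made 51.4% of its UMIs. Of the 111, 45 had at least 100 UMIs in the cluster. Beside the genes described above they included Gzmbl3, a granzyme-like protease, with 95.8% of its UMIs, Prss29, a tryptase-like protease, with 93.2%, and Dnase2b, a nuclease, with 94.6%. Just below that limit lay Enpp3, an ectoenzyme used as a surface marker of basophils, at 121 CPM with 49.7% of its UMIs, a gene chosen after its values were seen. At the other end, among genes with 5000 or more UMIs over all clusters, the lowest ratios were those of LOC689230, Pcp4l1, Trim2, Klhl14 and Spon1. LOC689230 had 1 UMI in the cluster and a log2 ratio of −7.00 (−12.89 to −5.11), Pcp4l1 had 2 UMIs and −6.66 (−10.02 to −5.12), and Spon1 had 3 UMIs and −5.94 (−8.44 to −4.61). Trim2, with 9 UMIs, was at −6.41 and Klhl14, with 4, at −5.98. Their highest levels lay in clusters 8, 1, 1, 2 and 15.

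Within the UAC library the other clusters with these transcripts differed from cluster 13. Cluster 18 held the next most Ms4a2 UMIs, 50 at 15.2 CPM, with 1 UMI of Cpa3. Cluster 15 had 34 Ms4a2 UMIs and 0 of Cpa3, along with 809 UMIs of Mcpt10, 415 of Prg2, 169 of Cma1, 65 of Epx and 129 of Gata2. Cluster 13 had 3.73 Cpa3 UMIs per Ms4a2 UMI, against 0.020 in cluster 18.

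In the sham library the clusters numbered 14 and 15 held most of both genes. Cluster 14 had 218 of 444 Ms4a2 UMIs, 49.1% (44.4 to 53.9), at 141 CPM, and 966 of 2083 Cpa3 UMIs, 46.4% (44.2 to 48.5), at 624 CPM (585 to 664). The Cpa3 level in UAC cluster 13, 620 CPM, lay within that interval. Cluster 15 of the sham library had 19.1% of Ms4a2 and 26.9% of Cpa3, and cluster 13 had 15.1% and 22.9%. By its monocyte and macrophage sum sham cluster 15 ranked 1 in its library, at 22091 CPM, against 915 CPM in UAC cluster 13. Cluster 10 had a further 12.2% of Ms4a2 and 1.30% of Cpa3. Both genes were thus spread over several clusters in the sham library and concentrated in 1 in the UAC library. Sham cluster 14 also held 69.7% of the Mcpt10 UMIs, 54.1% of Prg2, 66.3% of Elane, 58.3% of Jchain and 80.7% of Hba-a1.

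In the UAC + miR-330 library the genes were divided. Cluster 18 held most Ms4a2, 392 of 773 UMIs or 50.7% (47.1 to 54.3), at 113 CPM, whereas cluster 19 held most Cpa3, 2076 of 3152 UMIs or 65.9% (64.2 to 67.5), at 895 CPM. Cluster 19 had 21.2% of Ms4a2, cluster 14 had 11.9% of it with 1.11% of Cpa3, and cluster 18 had 25.2% of Cpa3, so the Cpa3 UMIs per Ms4a2 UMI were 12.7 in cluster 19 and 2.03 in cluster 18. Cluster 18 held 83.7% of Mcpt8l2, 81.6% of Mcpt10, 87.2% of Prg2 and 86.9% of Elane. Its neutrophil markers summed to 203094 CPM, against 5243 CPM in UAC cluster 13. Its early granulocyte sum of 5634 CPM ranked 1 in the library. Cluster 19 held 50.3% of Cma1, and its Kit level was 78.9 CPM (67.9 to 91.2). Most Jchain, Ighm and Hba-a1 lay elsewhere, since cluster 5 held 76.3% of Jchain, 54.9% of Ighm and 77.6% of Hba-a1, with 5.17% of Cpa3 and 6.60% of Ms4a2.

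**Figure D3:**
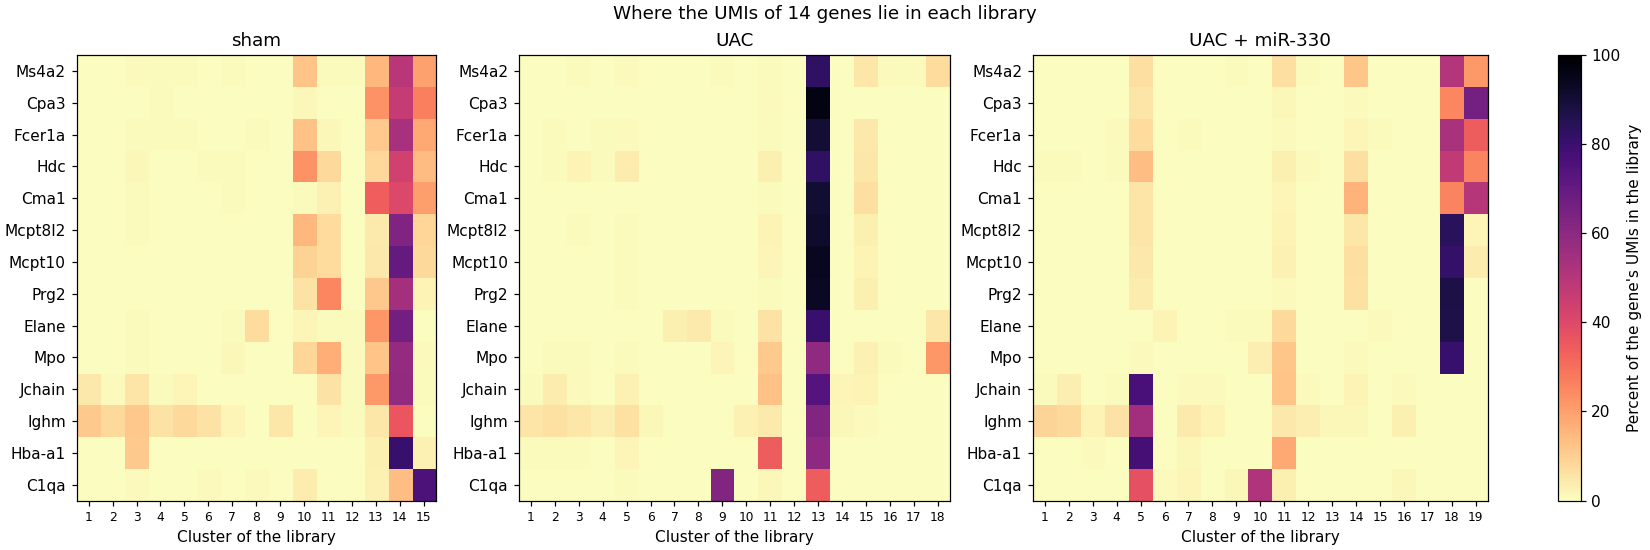
Heatmaps of the share of each gene's UMIs (color, percent of the library's UMIs of that gene) in each cluster (columns), with sham at left, UAC in the middle and UAC + miR-330 at right, for 14 genes (rows). The mast, basophil, eosinophil, primary granule and plasma cell genes peak in 1 cluster of the UAC library, where Cpa3 reaches 96.7%, and in UAC + miR-330 they are divided between clusters 5, 18 and 19.

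The class sums followed the same division. Mast cell markers summed to 1791 CPM in sham cluster 14, 2918 CPM in UAC cluster 13, and 853 and 1231 CPM in UAC + miR-330 clusters 18 and 19. For basophil markers the sums were 874, 2006, 1899 and 91.4 CPM, and for eosinophil markers 3547, 3904, 2596 and 6.47 CPM. Plasma cell markers summed to 1811 CPM in sham cluster 14, 3161 CPM in UAC cluster 13 and 3919 CPM in cluster 5 of the UAC + miR-330 library. Erythroid markers were at 75457, 10170 and 68646 CPM in these clusters. Clusters were made in each library alone, so these are not levels of the same set of cells.

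By the whole profile, UAC cluster 13 was most like sham cluster 14, with a Pearson correlation of 0.94 across 15138 genes on log2(CPM + 1), and next like UAC + miR-330 clusters 5 and 18, at 0.93 and 0.89. Within its own library the nearest were clusters 9 and 11, at 0.87 and 0.86. Of its 50 leading genes (largest ratio with at least 100 UMIs), 30 were among the 50 of sham cluster 14. In the UAC + miR-330 library 19 were among those of cluster 5 and 18 among those of cluster 18. Clusters 9 and 11 of the UAC library shared 0. That count was largely fixed by the choice of genes, since 49 of the 50 have most of their UAC UMIs in cluster 13, and it does not measure likeness. By most UMIs, 35 of the 50 lay in sham cluster 14, and in the UAC + miR-330 library 23 lay in cluster 5, 21 in cluster 18 and 4 in cluster 19. Genes within a library are not independent replicates, and the value is a description.

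Across all 52 clusters the genes whose log2(CPM + 1) was most like that of Ms4a2 were Mcpt2, Hdc, Mcpt10, Mcpt8l2 and Fcer1a, at Pearson correlations of 0.94, 0.92, 0.91, 0.91 and 0.91. Cma1, Cpa3, Mcpt1l1, Mcpt1l4 and Gzmb followed, from 0.91 to 0.83. Gata2 stood at 0.80 and Jchain at 0.41. The clusters share 3 libraries and differ in depth.

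Over whole libraries, Ms4a2 was at 5.72 CPM (5.20 to 6.27) in sham, 7.44 (6.89 to 8.01) in UAC and 7.95 (7.40 to 8.53) in UAC + miR-330. Cpa3 was at 26.8 CPM (25.7 to 28.0), 23.7 (22.7 to 24.7) and 32.4 (31.3 to 33.6). For Ms4a2 the intervals of UAC and UAC + miR-330 overlapped and that of sham lay below both, whereas for Cpa3 UAC was the lowest and no intervals overlapped. Gata2 was at 4.69, 9.62 and 12.9 CPM. Mast cell markers summed to 119, 173 and 131 CPM, basophil markers to 50.1, 105 and 104 CPM, and the granule protease list to 321, 713 and 634 CPM. With 1 pool of rats per condition, a difference between conditions and a difference between pools cannot be told apart.

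Promoters of genes that were higher in cluster 13 are printed because members of the GATA family bind AGATAA and Gata2 lies in the same cluster. The motif AGATAA, or its reverse complement TTATCT, was found in the 250 bases before the start of 3447 of 33469 promoters (10.3%) of RefSeq assembly GRCr8 and of 6 of 30 promoters (20%) that carry the symbols of the 50 leading genes. Of Cpa3, Fcer1a, Hdc, Gata2, Jchain, Cma1 and Tpsb2, the windows of Cpa3, Fcer1a and Cma1 held it 1 time each. Capitals mark the motif, each sequence runs 5′ to 3′ on the gene's strand, and a match is a description and not a site.
Cpa3 (GRCr8, chr2:104673238-104673487, minus strand): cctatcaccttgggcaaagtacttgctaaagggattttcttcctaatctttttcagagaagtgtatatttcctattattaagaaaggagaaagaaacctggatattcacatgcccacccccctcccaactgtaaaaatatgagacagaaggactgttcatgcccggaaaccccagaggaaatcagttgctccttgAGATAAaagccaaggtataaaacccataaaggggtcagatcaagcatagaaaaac
Fcer1a (GRCr8, chr13:88224680-88224929, minus strand): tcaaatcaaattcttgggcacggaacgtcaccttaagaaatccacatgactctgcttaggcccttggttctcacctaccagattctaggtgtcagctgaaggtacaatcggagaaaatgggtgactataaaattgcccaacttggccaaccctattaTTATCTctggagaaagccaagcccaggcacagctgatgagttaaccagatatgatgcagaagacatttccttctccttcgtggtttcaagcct
Cma1 (GRCr8, chr15:33390134-33390383, minus strand): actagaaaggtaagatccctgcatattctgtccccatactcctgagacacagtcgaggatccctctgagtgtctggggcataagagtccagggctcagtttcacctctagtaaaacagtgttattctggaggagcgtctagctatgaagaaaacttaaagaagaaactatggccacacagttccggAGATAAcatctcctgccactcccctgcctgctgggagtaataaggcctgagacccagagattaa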

How the data were processed

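The input was 1 deposited cluster table per library, laid out like Cell Ranger's graph-based clustering output, with libraries clustered separately. The paper describes graph-based clustering in Seurat, with Harmony applied across all samples, so the clusters used here need not be those of the paper. The submitters' processing notes name Cell Ranger 7.0, STAR and Seurat 4.0.1, with builds GRCh38 and mm10, which are not rat builds, while the tables carry rat identifiers. What is deposited as mean counts is signal, the UMIs of a gene divided by 1 number per cluster. The authors' log2 fold changes and adjusted p-values compare each cluster with the rest of its library and were not used. Each mean was divided by the smallest positive mean of its column, and 100% of values were whole to within 1e-06 in all 3 libraries. No count test was run, because 1 library per condition has no replicates.

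Ratios are log2 of (UMIs + 0.5) per UMI of UAC cluster 13 over the same in the pooled other 17 clusters, for genes with at least 10 UMIs in the library, and called at 2-fold. Named genes are the markers given for the cluster, the 15 largest ratios with at least 100 UMIs, the 10 with most UMIs outside the mitochondrial, ribosomal, haemoglobin and immunoglobulin families, up to 4 by UMIs and up to 3 by ratio of each list, defining mast, basophil, eosinophil and progenitor markers at 3 UMIs or fewer, the 5 lowest ratios with at least 5000 UMIs, the 10 most like Ms4a2, and the 10 with most UMIs among genes of which the cluster holds at least 50%. Other listed genes named for contrast were chosen after their values were seen. Members and lists were chosen with earlier results of these data known. Of 399 symbols in 19 marker classes and 11 lists, 371 matched by name, 1 by a RefSeq synonym and 27 did not match. Names on several identifiers (101, 106 and 116 in sham, UAC and UAC + miR-330) were summed. Doublets and RNA free in the droplets were not treated. Steps were tested on simulated data. Python 3.11.15, numpy 2.4.6, pandas 2.3.3 and scipy 1.17.1 were used.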

Additional observations from a re-analysis of the deposited data

How the results depend on the processing

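The number of genes at least 2-fold higher in UAC cluster 13, 991, stayed between 821 and 1185 with other clusters weighted equally, with the cluster next in Ms4a2 left out, with the planned totals and with added UMIs in proportion to the totals. It was 3685 with 5 UMIs added, 4374 for genes with at least 1 UMI, 373 for genes with at least 100 UMIs, 429 by whole counting intervals, 2805 with totals that also leave out large unnamed entries and 3156 when centred. The lower count of 9198 was 5998 with 5 UMIs added, 4858 by whole intervals, 3294 with those totals and 2888 when centred. Totals that leave out these genes raise every ratio because cluster 13 loses the larger share of its UMIs, and 5 UMIs weigh more in the smaller of the totals compared. Proportional UMIs, whole intervals, the unnamed entries and centring were chosen after seeing the data.

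The share of Cpa3 was 98.2% with clusters weighted equally, and that of Ms4a2 stayed within its interval. Library levels of Ms4a2 became 7.08, 9.05 and 9.45 CPM in sham, UAC and UAC + miR-330 with the planned totals and 7.16, 9.22 and 9.59 CPM without the unnamed entries as well. Those of Cpa3 became 33.2, 28.8 and 38.5 CPM, and 33.6, 29.4 and 39.1 CPM, in the same order of libraries.

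Of 160 named genes 157 had at least 10 UMIs in the library, and of these 74 were past 2-fold higher and 50 lower. Of the 50 lower calls 36 were kept without the unnamed entries and 35 when centred, and all 74 higher calls were kept in both. With other clusters weighted equally, 70 of the 74 higher and 49 of the 50 lower calls were kept. Without cluster 18 the numbers kept were 73 and 49. Centring changed the sign of 25 named genes, 21 of them within 2-fold. Among counted genes past 2-fold, ratios changed sign for Acp5 (0.0521 without unnamed entries, 0.167 centred), Cdk6 (0.0821 and 0.197), Chst12 (0.0952 and 0.21) and Tgfb1 (0.104 centred), and for Hlf and Mycn with 5 UMIs added (0.207 and 0.272). Outside that count, with 1 and 3 UMIs in the library, Il13 and Il4 changed sign with proportional UMIs (−1.58 and −2.81). These last 4 genes had 0 UMIs in the cluster. Depth limits genes with few UMIs, since the limit of 3 counts for a count of 0 is 0.877 CPM in the cluster. No paired analysis was possible because each condition has 1 library.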
